A study of Rattus norvegicus with 16 samples.

Results

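The genes described here encode the subunits of AMPA and NMDA receptors, the glutamate-gated ion channels that carry most fast excitatory transmission in the brain. The set was defined by 10 gene symbols, Gria1 to Gria4, Grin1, Grin2a to Grin2d and Grin3a. In the platform annotation 9 of the 10 had a named probe set, 1 each, among 15037 named genes in all. Gria2 had none under its symbol, gene identifier or accessions, and is not analysed here.

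RNA was measured on 16 Affymetrix arrays, 1 for each of 4 brain regions under each of 4 treatments, all from male Wistar rats aged 8 to 10 weeks. The regions were the lateral habenula (LHb) and medial habenula (MHb), a pair of small nuclei above the thalamus, and, in the hindbrain, the solitary nucleus (Sol), which receives visceral sensory input, and the medial vestibular nucleus (MVe), which receives balance signals. Treatment lasted 60 min with Sevoflurane, an inhaled anesthetic, at 2.4%, with Propofol, an anesthetic injected into a vein, of which 10 mg/kg was given at once and then 36 mg/kg each hour, or with the control of each, which was O2 or Intralipos, a 10% lipid emulsion given at the same rate as Propofol. Every group breathed 40% oxygen at 6 L/min, and the regions were cut by laser from Nissl-stained frozen sections 30 µm thick. How many rats went into an array, and whether regions came from the same rats, is not given in the sources used here. Each combination had 1 array, so the 4 treatments stood in for replicates of a region and the 4 regions for replicates of a treatment. The p-values therefore measure the spread between these arrays, and they may be too small where arrays share a rat.

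An AMPA receptor is a tetramer of the subunits GluA1 to GluA4, made by Gria1 to Gria4. It opens and closes within milliseconds, and its subunit mix, with that of its auxiliary proteins, sets its speed and its permeability to calcium. An NMDA receptor needs the obligatory subunit GluN1, from Grin1, which binds glycine or D-serine. Its partners come from Grin2a to Grin2d, which bind glutamate and set the channel's kinetics and its block by magnesium, or from Grin3a, whose product lowers calcium flow and magnesium block. These receptors are also studied as sites of action of general anesthetics.

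The values are deposited log2 signals, so a difference of 1 is a change of 2-fold. A probe set's brightness depends on its own sequence, so levels were compared only for 1 gene between arrays and never between genes. For orientation, the median of all gene values was 6.86, and the means of 23 background control probe sets ran from 3.03 to 6.50. Signals of 5 of the 9 subunit genes (Gria1, Gria3, Gria4, Grin1 and Grin2b) were above 6.86 in 16 of 16 arrays. The others crossed it. Grin2d lay below it in all arrays of LHb, MHb and Sol and in 2 of 4 of MVe, Grin2c in 3 of 4 of MHb, Grin2a in 2 of 4 of MHb and Grin3a in 2 of 4 of MVe. The Grin2d signals outside MVe, and those of MVe under O2 and Intralipos, fell within the range of the background control probe sets, where signal and background cannot be told apart. So did Grin2c in MHb under O2 and Intralipos and Grin3a in MVe under Propofol.

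The arrays fell into a pair of sets. The mean over probe sets was 7.20 to 7.21 in the Sevoflurane and O2 arrays and 6.97 to 6.99 in the Propofol and Intralipos arrays. Each anesthetic and its control were in 1 set, whereas a treatment of one set cannot be told apart from the set when it is compared with the other. Region labels were compared with marker genes. Medial habenula markers averaged 14.9 to 15.1 in MHb, 10.2 to 11.0 in LHb, 8.84 to 8.97 in Sol and 5.82 to 6.51 in MVe. Their averages in LHb were thus above those in the hindbrain nuclei, and the part of medial habenula tissue in the LHb arrays was not tested. Solitary nucleus markers averaged 7.85 to 8.74 in Sol against 3.88 to 4.24 in the other regions. Lateral habenula markers averaged 11.6 to 11.8 in LHb, 9.27 to 9.55 in MHb, 9.81 to 10.4 in Sol and 9.91 to 10.3 in MVe. Gpr151, one of them, was brighter in MHb (16.3 ± 0.22, SD, n = 4) than in LHb (14.0 ± 0.59). Of the 5 measured, 2 passed as higher and 3 as lower in LHb than in Sol (11% and 14.3% of all genes). Against MVe 3 were higher and 2 lower (13.7% and 13%). The markers of other cell types also differed between regions. The mean of 14 neuron markers was lowest in LHb (12.9 to 13.1), followed by MHb (13.4 to 13.5), Sol (13.6 to 13.9) and MVe (14.5 to 14.8). That of 9 astrocyte markers was 14.1 to 14.4, 11.7 to 12.1, 15.1 to 15.3 and 14.1 to 14.6 in the same order, and that of 9 oligodendrocyte markers 14.5 to 15.1, 12.6 to 13.3, 11.2 to 11.5 and 14.0 to 14.5. None of these lists was near the bottom of the scale in any region. Within the neuron list, Gad1 and Gad2 averaged 4.76 and 5.66 in LHb and 4.76 and 5.69 in MHb. They averaged 13.7 and 13.6 in Sol and 14.4 and 14.6 in MVe. For LHb minus Sol the median of the 14 neuron markers was 0.10, with 9 of 14 above 0. The order of the neuron means is therefore not read as an order of neuron content. In tissue of mixed cells, fewer cells that express a gene and less RNA per cell cannot be told apart, and the part of cell makeup in the region differences below was not tested.

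RefSeq windows on build GRCr8, from 250 bases before to 50 bases after a gene's start, were given for 5 of the 9 genes, namely Gria4, Grin1, Grin2c, Grin2d and Grin3a. Those of 4 NMDA receptor genes are printed because these genes hold both ends of the results on regions. Grin1 varied the least between regions, while Grin2c, Grin2d and Grin3a had the largest differences between MVe and another region among NMDA receptor genes. All 4 genes lie on the minus strand, Grin1 at chr3:28528705-28529004, Grin2c at chr10:101005089-101005388, Grin2d at chr1:105481187-105481486 and Grin3a at chr5:69001509-69001808. Capitals mark matches to the motifs named after the sequences, which are written 5′ to 3′ in the direction of the gene.
Grin1: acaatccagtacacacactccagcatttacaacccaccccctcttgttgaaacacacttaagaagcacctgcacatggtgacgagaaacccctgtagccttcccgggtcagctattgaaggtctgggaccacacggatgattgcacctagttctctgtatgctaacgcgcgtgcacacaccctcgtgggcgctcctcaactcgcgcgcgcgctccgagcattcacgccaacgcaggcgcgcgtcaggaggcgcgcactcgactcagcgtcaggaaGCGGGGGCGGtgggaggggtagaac
Grin2c: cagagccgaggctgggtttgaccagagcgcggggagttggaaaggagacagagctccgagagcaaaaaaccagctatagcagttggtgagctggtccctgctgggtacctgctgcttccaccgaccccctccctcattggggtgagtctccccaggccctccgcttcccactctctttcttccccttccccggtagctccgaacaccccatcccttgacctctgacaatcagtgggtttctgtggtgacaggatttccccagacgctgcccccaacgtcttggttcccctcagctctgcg
Grin2d: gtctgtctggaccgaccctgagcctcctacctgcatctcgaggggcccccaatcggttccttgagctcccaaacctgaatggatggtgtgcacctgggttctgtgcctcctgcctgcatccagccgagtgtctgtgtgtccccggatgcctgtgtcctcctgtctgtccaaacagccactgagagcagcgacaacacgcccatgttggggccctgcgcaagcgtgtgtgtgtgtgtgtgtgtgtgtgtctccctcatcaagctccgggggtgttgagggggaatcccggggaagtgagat
Grin3a: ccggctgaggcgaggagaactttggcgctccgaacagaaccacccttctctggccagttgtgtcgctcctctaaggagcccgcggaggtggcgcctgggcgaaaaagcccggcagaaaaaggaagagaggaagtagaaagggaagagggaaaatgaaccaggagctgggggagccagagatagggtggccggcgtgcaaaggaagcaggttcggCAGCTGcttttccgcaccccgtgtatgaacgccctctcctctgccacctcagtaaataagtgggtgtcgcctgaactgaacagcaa

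Both strands were searched for 5 kinds of short motif that activity-dependent and housekeeping factors are known to bind. The Grin1 window held GCGGGGGCG, a form of the site of the Egr family of zinc finger factors, starting at base 276 from the 5′ end. Overlapping it at base 280 was a GC box, GGGCGG, the site of Sp1. Of 33469 windows of this length 2.73% held that Egr form and 33.1% a GC box. The other Egr form, GCGTGGGCG, was in 0 of the 5 windows against 0.544% of all. The E-box CAGCTG was present 1 time in the Grin3a window and 2 times in that of Gria4, against 15.1% of all windows with at least 1. The AP-1 site TGACTCA and the cyclic AMP response element TGACGTCA, in 4.63% and 1.83% of all windows, were in 0 of the 5. Neither Grin2c nor Grin2d held a match to any motif searched. A match describes letters in the window and is no evidence of binding.

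The first comparison asked in which regions each subunit gene was expressed at a higher or lower level, over the 4 treatments. Every subunit gene differed between regions. In limma's moderated F test over the 4 regions 9 of 9 genes passed an adjusted p of 0.05 (Benjamini-Hochberg over 15037 genes), with adjusted p from 1.59e-12 for Gria1 to 0.00244 for Grin1. That threshold was passed by 54.1% of all genes. The distance between the highest and lowest region mean was 0.62 for the median gene and 0.83 to 4.36 for the subunit genes. Of the 54 differences between pairs of regions (6 pairs, 9 genes) 39 passed. Over all genes and the same pairs 32.6% passed. Errors after ± below are limma's standard errors of a difference unless SD is written, and values are listed in the order Sevoflurane, O2, Propofol, Intralipos.

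**Figure D1:**
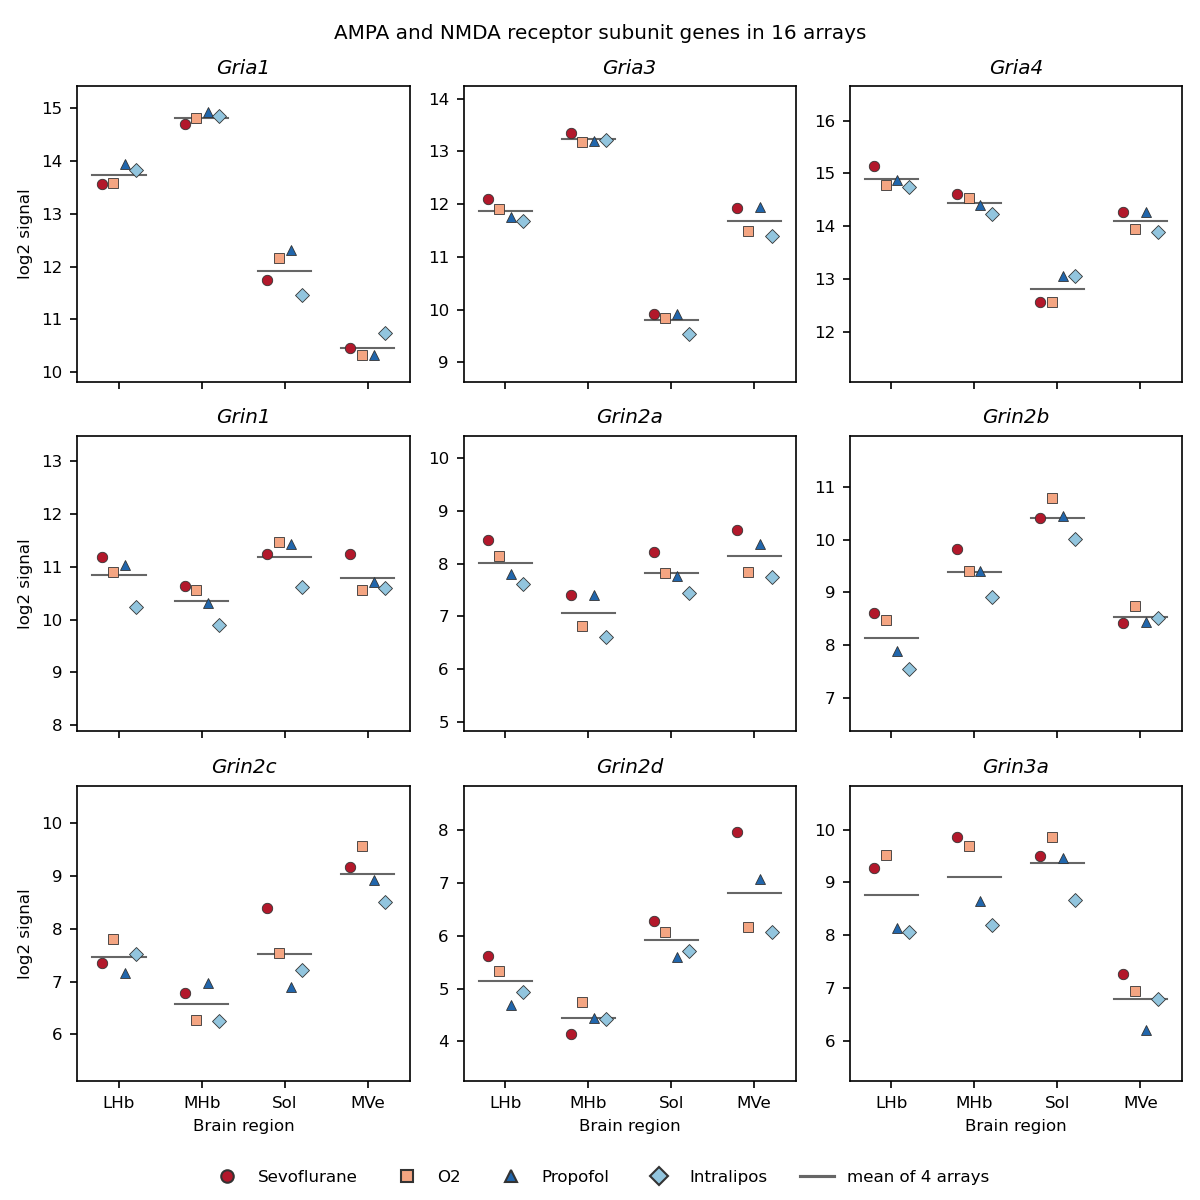
Log2 signal (vertical axes, each spanning the same number of log2 units around its own gene's values) of the 9 subunit genes in each of the 16 arrays, by brain region; symbols give the treatment and grey bars the mean of 4 arrays. Gria1 falls in 4 separate steps from MHb to MVe, whereas the regions overlap for Grin1.

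Gria1 encodes GluA1, the AMPA receptor subunit best known for its insertion into synapses during plasticity. Its signals were 14.70, 14.83, 14.92 and 14.85 in MHb and 13.57, 13.58, 13.95 and 13.84 in LHb. They were 11.74, 12.17, 12.31 and 11.46 in Sol and 10.46, 10.33, 10.32 and 10.75 in MVe. The 4 regions did not overlap, and all 6 pairs passed the test. From MHb to MVe the difference was 4.36 ± 0.18, which is 20.5-fold (adjusted p = 5.21e-13, the same sign under 4 of 4 treatments), and this was the largest region range among the subunit genes. Neighbours in the order differed by 1.09 ± 0.18 (MHb over LHb, adjusted p = 9.7e-05), 1.81 ± 0.18 (LHb over Sol, adjusted p = 3.63e-07) and 1.45 ± 0.18 (Sol over MVe, adjusted p = 3.26e-06).

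Gria3 encodes GluA3, a subunit that commonly pairs with GluA2. It too was highest in MHb, at 13.34, 13.17, 13.19 and 13.21, followed by LHb at 12.10, 11.92, 11.76 and 11.68. In MVe it read 11.92, 11.49, 11.94 and 11.39, and in Sol 9.91, 9.84, 9.92 and 9.53. LHb and MVe overlapped and differed by 0.18 ± 0.14 (adjusted p = 0.401, 95% interval -0.11 to 0.48), and the other 5 pairs passed with no overlap. The extremes, MHb and Sol, were 3.43 ± 0.14 apart, or 10.8-fold (adjusted p = 6.75e-13). Sol was also 1.88 ± 0.14 below MVe, or 3.69-fold (adjusted p = 7.03e-09), the opposite of Gria1, which was higher in Sol than in MVe.

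Gria4 encodes GluA4, the subunit of fast AMPA receptors in many brainstem and interneuron synapses. Its values were 15.15, 14.78, 14.88 and 14.75 in LHb and 14.62, 14.53, 14.41 and 14.23 in MHb. In MVe they were 14.28, 13.95, 14.27 and 13.89, and in Sol 12.56, 12.57, 13.06 and 13.05. Sol stood below the other regions with no overlap, by 1.29 ± 0.16 from MVe (2.44-fold, adjusted p = 5.07e-06) and by 2.08 ± 0.16 from LHb (4.22-fold, adjusted p = 2.01e-08). LHb was 0.79 ± 0.16 above MVe (adjusted p = 0.00118). MHb lay between these regions and passed against neither. It was 0.44 ± 0.16 below LHb with an adjusted p of 0.0502 although no array overlapped, and 0.35 ± 0.16 above MVe with an adjusted p of 0.103. Over the alternatives the adjusted p of the LHb over MHb difference ran from 0.0125 to 0.248, and without single arrays from 0.0316 to 0.161. That of MHb over MVe ran from 0.0404 to 0.489 and from 0.0722 to 0.292.

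Grin1, the gene of the obligatory NMDA receptor subunit, was the most even of the set. Its signals were 11.24, 11.47, 11.43 and 10.62 in Sol and 11.18, 10.90, 11.02 and 10.24 in LHb. They were 11.24, 10.57, 10.72 and 10.59 in MVe and 10.64, 10.57, 10.31 and 9.90 in MHb. All regions overlapped, and the Intralipos array was the lowest of its region in LHb, MHb and Sol. MHb was 0.83 ± 0.16 below Sol (1.78-fold, adjusted p = 0.000412, in 4 of 4 treatments). MHb was also 0.48 ± 0.16 below LHb (adjusted p = 0.0322) and 0.43 ± 0.16 below MVe (adjusted p = 0.0448), but neither call was steady. With each array centred on its own median the adjusted p were 0.0737 and 0.0674, in the Sevoflurane and O2 arrays alone 0.279 and 0.393, and in the Propofol and Intralipos arrays alone 0.170 and 0.118. Adjusted over all probe sets the second had 0.0559. The first also missed the threshold without any 1 of 6 of the 8 habenula arrays, the exceptions being the Intralipos array of LHb and the O2 array of MHb, with differences of 0.43 to 0.49 and adjusted p up to 0.0994. The second missed it without any 1 of 8 arrays, namely the Sevoflurane, O2 or Propofol array of LHb, the Sevoflurane, Propofol or Intralipos array of MHb, and the Sevoflurane or Intralipos array of MVe, with adjusted p up to 0.177. No difference among Sol, LHb and MVe passed the threshold. LHb minus Sol was -0.35 ± 0.16 (adjusted p = 0.139, 95% interval -0.692 to -0.005, the same sign in 4 of 4 treatments). LHb minus MVe was 0.06 ± 0.16 (adjusted p = 0.845, 95% interval -0.28 to 0.40). For Sol minus MVe the 95% interval was 0.06 to 0.75. The Sol over MVe difference of 0.41 ± 0.16 (adjusted p = 0.0616) ran from 0.26 to 0.45 over the alternatives (adjusted p from 0.0392 to 0.335) and from 0.27 to 0.52 without single arrays (0.0264 to 0.240).

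Grin2a encodes GluN2A, which gives NMDA receptors fast decay and becomes abundant as synapses mature. It read 8.64, 7.85, 8.37 and 7.75 in MVe and 8.45, 8.15, 7.81 and 7.62 in LHb. It read 8.21, 7.83, 7.77 and 7.44 in Sol and 7.40, 6.82, 7.40 and 6.60 in MHb. MHb lay below the other 3 regions with no overlap. The gaps were 1.10 ± 0.16 to MVe (2.14-fold, adjusted p = 1.29e-05), 0.95 ± 0.16 to LHb (1.93-fold, adjusted p = 0.000106) and 0.76 ± 0.16 to Sol (1.69-fold, adjusted p = 0.000655). In the Propofol and Intralipos arrays alone LHb minus MHb was 0.71 (adjusted p = 0.0551) and MHb minus Sol -0.60 (adjusted p = 0.0821). MVe, LHb and Sol overlapped, and their 3 differences did not pass. Sol minus MVe, at -0.34, became -0.49 and passed with centred arrays (adjusted p = 0.0171) and with quantile normalization (0.0168). The 95% intervals were -0.47 to 0.18 for LHb minus MVe, -0.14 to 0.52 for LHb minus Sol and -0.67 to -0.01 for Sol minus MVe.

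Grin2b encodes GluN2B, the slowly decaying subunit that prevails early in development. It was highest in Sol, at 10.41, 10.79, 10.45 and 10.01, then in MHb, at 9.82, 9.40, 9.41 and 8.91. MVe gave 8.42, 8.73, 8.44 and 8.51, and LHb 8.61, 8.48, 7.88 and 7.54. Sol exceeded every other region with no overlap, by 1.03 ± 0.18 over MHb (2.04-fold, adjusted p = 0.000123), 1.89 ± 0.18 over MVe (3.70-fold, adjusted p = 1.41e-07) and 2.29 ± 0.18 over LHb (4.87-fold, adjusted p = 1.88e-08). MHb was in turn above MVe by 0.86 ± 0.18 (adjusted p = 0.000664) and above LHb by 1.26 ± 0.18 (adjusted p = 2.14e-05). LHb and MVe overlapped, and their difference of -0.40 ± 0.18 had an adjusted p of 0.114. It was -0.03 (adjusted p = 0.951) in the Sevoflurane and O2 arrays alone, -0.77 (0.0444) in the Propofol and Intralipos arrays alone, and -0.24 (0.391, without the Intralipos array of MVe) to -0.53 (0.0483, without the Sevoflurane array of MVe) without single arrays.

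Grin2c encodes GluN2C, which is known mainly from cerebellar granule cells and from astrocytes and lowers the channel's conductance. MVe was highest, at 9.18, 9.58, 8.92 and 8.51, with no array of another region reaching it. Sol read 8.40, 7.55, 6.89 and 7.23, LHb 7.36, 7.81, 7.16 and 7.52, and MHb 6.79, 6.27, 6.97 and 6.25. MVe was 2.48 ± 0.25 above MHb (5.57-fold, adjusted p = 1.91e-07, with 2 of 4 MHb arrays within the background range), 1.58 ± 0.25 above LHb (adjusted p = 9.29e-05) and 1.53 ± 0.25 above Sol (2.89-fold, adjusted p = 9.16e-05). LHb and Sol differed by only -0.05 ± 0.25 (adjusted p = 0.916, 95% interval -0.58 to 0.48). MHb was below both, by 0.89 ± 0.25 from LHb (adjusted p = 0.0109) and by 0.95 ± 0.25 from Sol (adjusted p = 0.00528, in 3 of 4 treatments). The first of these had an adjusted p of 0.0643 without the O2 array of MHb, 0.0567 without the Intralipos array of LHb and 0.110 in the Propofol and Intralipos arrays alone. The second, as MHb minus Sol, was -0.45 (adjusted p = 0.314) in those arrays alone and -1.44 (adjusted p = 0.00613) in the Sevoflurane and O2 arrays alone.

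Grin2d encodes GluN2D, the slowest subunit, found in midbrain, brainstem and spinal cord. Its MVe signals were 7.97, 6.17, 7.09 and 6.07, and its Sol signals 6.29, 6.08, 5.61 and 5.71. LHb gave 5.62, 5.34, 4.69 and 4.93 and MHb 4.13, 4.76, 4.44 and 4.42. MVe was highest as for Grin2c, but MVe and Sol overlapped and their difference of 0.90 ± 0.28 (adjusted p = 0.018) rested on single arrays. It was 0.58 with an adjusted p of 0.105 without the Sevoflurane array of MVe, 0.73 with 0.0798 without the Propofol array of MVe and 0.82 with 0.0615 without the Propofol array of Sol. In the Sevoflurane and O2 arrays alone Sol minus MVe was -0.88 with 0.177. MVe signals lay above those of both parts of the habenula with no overlap. The fitted differences were 2.39 ± 0.28 over MHb (adjusted p = 1.42e-06) and 1.68 ± 0.28 over LHb (adjusted p = 0.000177), and no fold is given because all LHb and MHb arrays lay within the background range. Among Sol, LHb and MHb every array was within that range, so their differences are fitted values from which no order of levels is read. Sol minus MHb was 1.48 ± 0.28 (adjusted p = 0.000316). LHb minus MHb was 0.71 ± 0.28 (adjusted p = 0.0716), and 0.39 to 0.85 with adjusted p from 0.0317 to 0.340 without single arrays. Sol minus LHb was 0.77 ± 0.28 (adjusted p = 0.0532), with adjusted p from 0.0226 to 0.182 without single arrays. Over the other alternatives its adjusted p ran from 0.0388 to 0.330, and 6 of 8 left it short of the threshold.

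Some markers of neighbouring tissue were also highest in MVe, where the Grin2c and Grin2d signals were highest. Gabra6, a defining gene of cerebellar granule cells, read 5.18 to 6.21 in MVe and 3.71 to 4.69 elsewhere, all within the background range. Pcp2, of Purkinje cells, read 7.61 to 8.45 in MVe and 4.47 to 5.25 elsewhere. Cbln3 also read higher in MVe (4.87 to 5.35) than elsewhere (3.75 to 4.61), again within the background range, and Car8 had its highest mean there (7.50). Neurod1, Zic1 and Zic2 were instead highest in MHb, at means of 13.6, 17.4 and 13.4, and Calb1 was lowest in MVe (6.66). The whole list of 8 cerebellar markers thus did not follow Gabra6 and Pcp2. Its mean was 7.28 to 7.56 in MVe, 7.41 to 7.51 in Sol, 8.47 to 8.59 in LHb and 9.49 to 9.71 in MHb. In MVe 4 of the 8 were higher and 2 lower than in Sol (16% and 19.3% of all genes). Against LHb 3 were higher and 4 lower (13% and 13.7%), and against MHb 4 higher and 4 lower (19.9% and 21%). Ttr, of choroid plexus, reached 17.0 to 18.3 in MVe. The mean of 8 choroid plexus markers was 7.83 to 9.19 in MVe and 7.35 to 7.62 in MHb. It was 5.18 to 7.21 in Sol and 5.16 to 5.65 in LHb. In MVe 8 of 8 were higher and 0 lower than in Sol (16% and 19.3% of all genes). Against LHb 7 were higher and 1 lower (13% and 13.7%), and against MHb 4 higher and 1 lower (19.9% and 21%). Otx2, one of them, had its highest mean in MHb (12.8), with 8.84 in LHb and 6.74 in MVe. The part of these tissues in the Grin2c and Grin2d results was not tested. Markers of tissue near the habenula differed as well. Hippocampal markers, 5 in all, averaged 6.97 to 7.53 in MHb and 5.19 to 5.70 in LHb. They averaged 5.49 to 6.23 in Sol and 6.80 to 7.37 in MVe. For 4 thalamus markers these ranges were 7.06 to 7.45, 5.84 to 6.58, 6.38 to 6.82 and 6.26 to 6.96. The part of such tissue in the region differences was not tested either.

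Grin3a, whose product GluN3A is known as a brake on synapse maturation, was low in MVe. There it read 7.27, 6.94, 6.20 and 6.78, against 9.51, 9.85, 9.45 and 8.66 in Sol. It read 9.87, 9.69, 8.66 and 8.20 in MHb and 9.28, 9.52, 8.15 and 8.07 in LHb. No MVe array reached any array of another region, and 1 of the 4 lay within the background range. The gaps were 2.57 ± 0.22 to Sol (5.93-fold, adjusted p = 4.11e-08), 2.31 ± 0.22 to MHb (4.94-fold, adjusted p = 9.17e-08) and 1.95 ± 0.22 to LHb (3.87-fold, adjusted p = 2.01e-06). Among Sol, MHb and LHb the signals overlapped. LHb was below Sol by 0.62 ± 0.22 at an adjusted p of 0.0492, a call that was lost in the Sevoflurane and O2 arrays alone (-0.28, adjusted p = 0.485), in the Propofol and Intralipos arrays alone (-0.95, adjusted p = 0.0639), with centred arrays (0.0876), with quantile normalization (0.0562), with all probe sets (0.0754) and without any 1 of 10 of the 16 arrays (0.052 to 0.229). Without the Propofol array of Sol it was -0.40. The calls kept were those without the Sevoflurane array of MHb or Sol, the O2 array of LHb or MVe, or the Intralipos array of MHb or MVe. Grin3a also had the widest gap between the array sets, with a mean 0.97 higher in the Sevoflurane and O2 arrays than in the Propofol and Intralipos arrays, against 0.21 for the median gene and -0.13 to 0.44 for the other subunit genes. The means of the sets were 9.78 and 8.43 in MHb, 9.40 and 8.11 in LHb, 9.68 and 9.06 in Sol, and 7.11 and 6.49 in MVe, and set and treatment cannot be told apart in it.

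**Figure D2:**
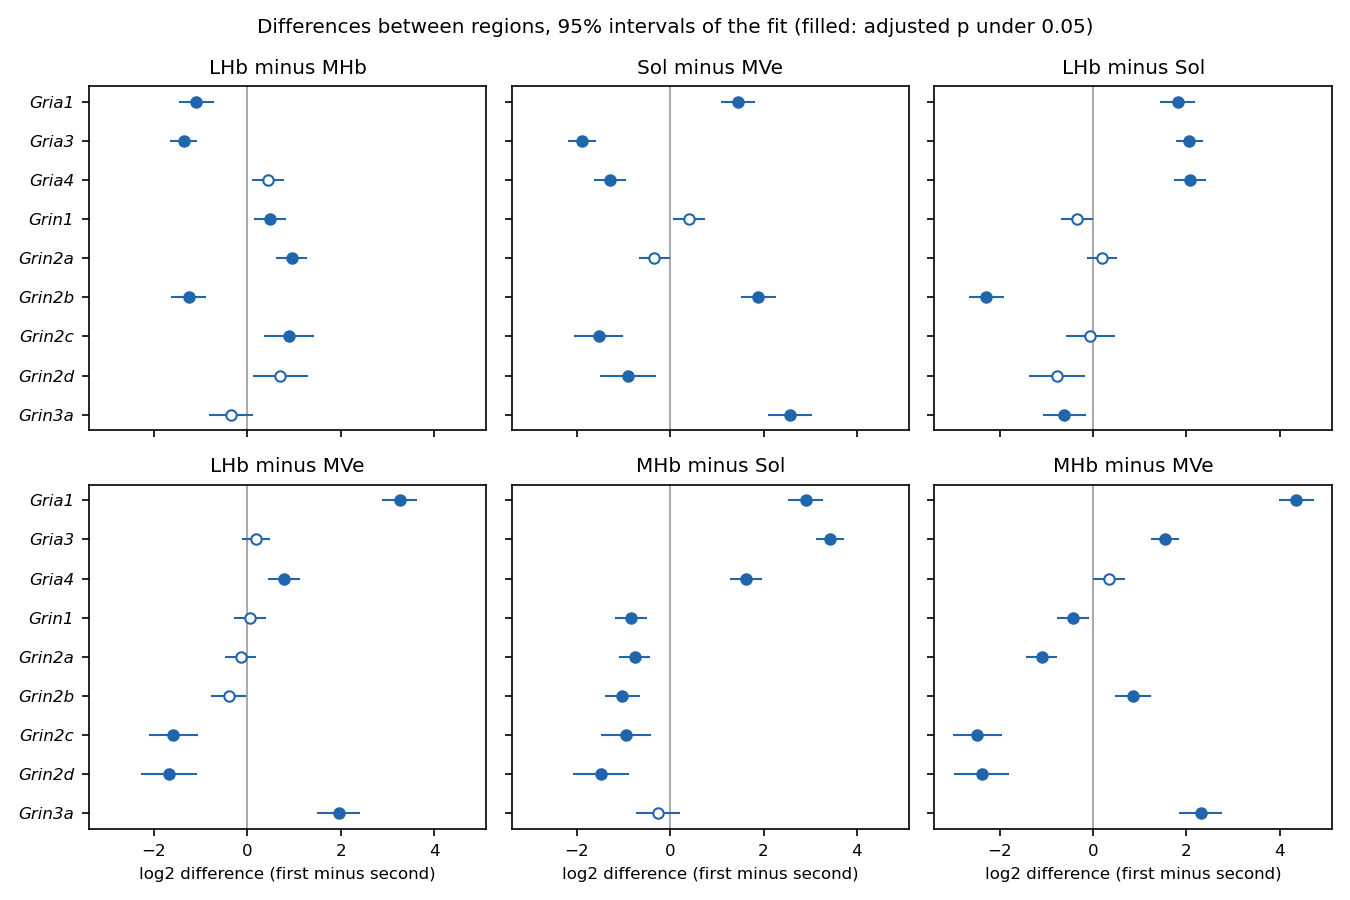
Fitted log2 difference between regions (horizontal axes, first region minus second) for the 9 subunit genes in the 6 region pairs, with limma's 95% intervals; filled points passed an adjusted p of 0.05. Gria1 and Grin2b lie on opposite sides of 0 in the pairs of Sol with LHb and with MHb.

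Set out by region pair, both parts of the habenula differed in 6 of 9 subunit genes. LHb was higher than MHb in 3 (Grin1, Grin2a and Grin2c), against 14.1% of all genes, and lower in 3 (Gria1, Gria3 and Grin2b), against 14.4%. Between the hindbrain nuclei 7 of 9 passed. Sol was higher than MVe in 3 (Gria1, Grin2b and Grin3a; 19.3% of all genes) and lower in 4 (Gria3, Gria4, Grin2c and Grin2d; 16%). MHb and Sol differed in 8 of 9, with all 3 AMPA receptor genes higher in MHb (18.9% of all genes) and 5 NMDA receptor genes, all but Grin3a, lower there (19.8%), Grin2d with both sides within the background range. MHb and MVe also differed in 8 of 9, with Gria1, Gria3, Grin2b and Grin3a higher in MHb (21%) and Grin1, Grin2a, Grin2c and Grin2d lower (19.9%). LHb exceeded Sol in the 3 AMPA receptor genes (11% of all genes) and was below it in Grin2b and Grin3a (14.3%). LHb exceeded MVe in Gria1, Gria4 and Grin3a (13.7%) and was below it in Grin2c and Grin2d (13%). Each subunit gene entered all 6 pairs and the regions are shared between them, so these counts are not independent. Centring each array on its median moves the median gene by over 0.1 in 4 of the 6 pairs, from 0.03 to 0.24 for MHb minus Sol, from -0.02 to -0.17 for Sol minus MVe, from -0.01 to 0.09 for LHb minus Sol and from -0.04 to -0.14 for LHb minus MHb. No difference that passed changed sign under that scaling or under quantile normalization.

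The balance between 2 subunit genes was followed as their log2 difference within an array. The level of such a difference depends on the 2 probe sets, so only its shift between regions is read, with no test. For Grin2a minus Grin2b, the balance often used to describe NMDA receptor maturation, the means were -0.12 ± 0.17 in LHb and -0.38 ± 0.53 in MVe, and -2.33 ± 0.25 in MHb and -2.60 ± 0.32 in Sol (SD, n = 4). The regions formed a high pair and a low pair without overlap, and LHb stood 5.57-fold above Sol. Grin2c minus Grin2b was 0.52 ± 0.38 in MVe, -0.66 ± 0.51 in LHb, -2.82 ± 0.32 in MHb and -2.90 ± 0.67 in Sol, so MVe stood 10.7-fold above Sol. MVe and LHb nearly touched, the lowest MVe array being at -0.01 and the highest LHb array at -0.01 too. Grin2d minus Grin2b ran from -4.95 ± 0.53 in MHb to -1.70 ± 0.99 in MVe. No fold is given for it, since Grin2d in MHb lay within the background range.

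Grin3a minus Grin1 was highest in MHb, at -1.25 ± 0.49, and lowest in MVe, at -3.98 ± 0.38, with LHb at -2.09 ± 0.62 and Sol at -1.82 ± 0.18. The shift from MVe to MHb was 6.64-fold, and MVe overlapped no other region. Among AMPA receptor genes, Gria1 minus Gria4 was 0.38 ± 0.24 in MHb, -0.89 ± 0.50 in Sol, -1.16 ± 0.31 in LHb and -3.63 ± 0.35 in MVe. MHb and MVe each stood apart from all other arrays, 16.1-fold from each other. Gria3 minus Gria4 was -1.22 ± 0.14 in MHb, -2.41 ± 0.08 in MVe, -3.01 ± 0.40 in Sol and -3.02 ± 0.11 in LHb, and MHb was 3.50-fold above LHb. Gria1 minus Gria3 was 2.12 ± 0.28 in Sol, 1.87 ± 0.36 in LHb, which overlapped both Sol and MHb, 1.59 ± 0.17 in MHb and -1.22 ± 0.43 in MVe, a shift of 10.1-fold between Sol and MVe.

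**Figure D3:**
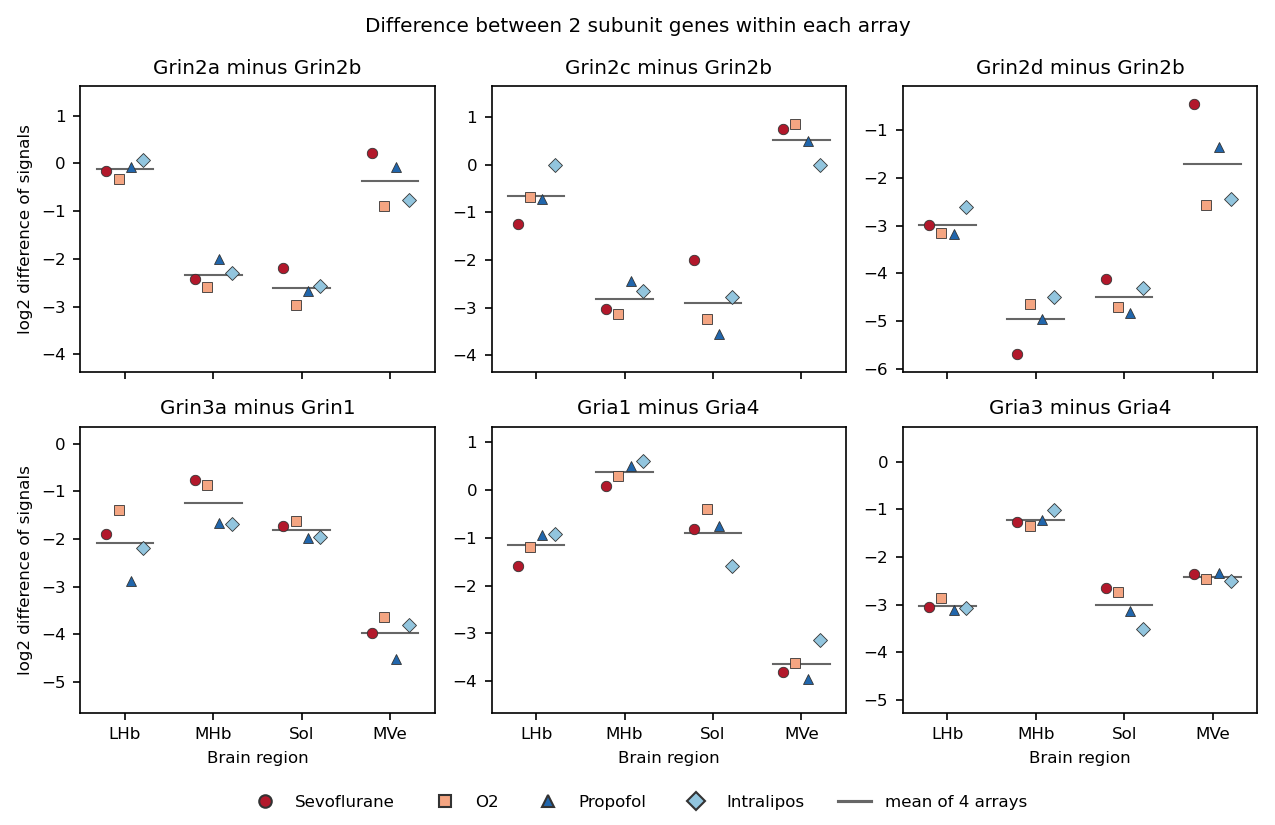
Log2 difference between 2 subunit genes within each array (vertical axes), by region and treatment, with grey bars for the mean of 4 arrays; the level depends on the probe sets, so only shifts between regions are read. Grin2a minus Grin2b separates LHb and MVe from MHb and Sol, and Gria1 minus Gria4 sets MHb and MVe apart from the rest.

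The second comparison asked whether an anesthetic altered these genes against its own control over the 4 regions. None passed the test. For Sevoflurane minus O2 the count was 0 of 9 subunit genes (0% of all genes), and for Propofol minus Intralipos 0 of 9 (0.02% of all genes). At an unadjusted p under 0.05, limma gave 1 of 9 for Sevoflurane (Grin2a), against 751 or 4.99% of all genes. For Propofol it gave 2 of 9 (Grin1 and Grin2a), against 1040 or 6.92% of all genes. Sevoflurane values were above 0 for 6 of 9 subunit genes with a median of 0.20, and Propofol values for 9 of 9 with a median of 0.19. The median of all genes was 0.01 in both, with 52.8% and 52.3% above 0.

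Grin2a had the highest Sevoflurane value. The Sevoflurane array exceeded the O2 array in 4 of 4 regions, by 0.30 and 0.58 in the lateral and medial habenula, 0.38 in Sol and 0.79 in MVe. The fitted difference was 0.51 ± 0.16, or 1.43-fold (unadjusted p = 0.0042, adjusted p = 0.852, from 0.727 to 1 over the alternatives). Under Propofol the same gene exceeded Intralipos in 4 of 4 regions, by 0.19, 0.80, 0.32 and 0.62 in the same order. That difference was 0.48 ± 0.16, or 1.40-fold (unadjusted p = 0.0066, adjusted p = 0.640, from 0.503 to 0.871). The controls are separate arrays, and the Sevoflurane and Propofol values of Grin2a differed by only 0.03 ± 0.22 (95% interval -0.43 to 0.50). Neuron markers were above 0 for 9 of 14 under Sevoflurane (median 0.08) and 10 of 14 under Propofol (median 0.12), and 0 of 14 passed; their part in these values was not tested.

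Grin1 had the highest Propofol value. It exceeded Intralipos by 0.81 in Sol, 0.78 in LHb, 0.41 in MHb and 0.13 in MVe, a fitted 0.53 ± 0.16 or 1.45-fold (unadjusted p = 0.0044, adjusted p = 0.637, from 0.406 to 0.871 over the alternatives). The Intralipos mean of Grin1 was the lowest of the 4, at 0.45 below the mean of all treatments within region. The Propofol mean was 0.08 above that mean of all treatments. That reference spans both array sets, and Grin1 averaged 0.37 higher in the Sevoflurane and O2 arrays. Set and treatment therefore cannot be told apart in these values. Under Sevoflurane Grin1 differed by 0.20 ± 0.16, with 3 of 4 regions above 0. Grin2b gave -0.04 ± 0.18 for Sevoflurane, with 2 of 4 regions above 0, and 0.30 ± 0.18 for Propofol, with 3 of 4. Grin2c gave 0.13 ± 0.25 and 0.11 ± 0.25 with 2 of 4 regions above 0 in both, and its single regions ran from -0.46 to 0.85. Grin3a gave -0.02 ± 0.22 and 0.19 ± 0.22.

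Grin2d gave 0.41 ± 0.28 for Sevoflurane (adjusted p = 0.989) and 0.17 ± 0.28 for Propofol (adjusted p = 0.947). The largest single differences were in MVe. There Sevoflurane stood 1.80 above O2 and Propofol 1.02 above Intralipos, while the other regions ran from -0.62 to 0.28. Each of these is 1 array against 1 array, with no replicate check, and both control arrays (6.17 and 6.07) lay within the range of the background control probe sets. Without the Sevoflurane array of MVe the fitted Sevoflurane difference was 0.09, and without the O2 array of MVe 0.12. In the same pair of arrays 12 of 14 neuron markers were higher under Sevoflurane (median 0.36), and in the Propofol pair 11 of 14 (median 0.24) with 8 of 8 choroid plexus markers (median 0.80); their part was not tested.

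For the AMPA receptor genes, Gria1 gave -0.11 ± 0.18 for Sevoflurane (95% interval -0.48 to 0.27) and 0.15 ± 0.18 for Propofol, where Sol was at 0.85 and MVe at -0.43. Gria3 gave 0.21 ± 0.14 and 0.25 ± 0.14. It was above 0 in 4 of 4 regions under Sevoflurane, from 0.07 to 0.43, and in 3 of 4 under Propofol. Gria4 gave 0.20 ± 0.16 and 0.18 ± 0.16, with 3 of 4 and 4 of 4 regions above 0. The lowest adjusted p of the 3 genes was 0.774, for Gria3 under Propofol.

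**Figure D4:**
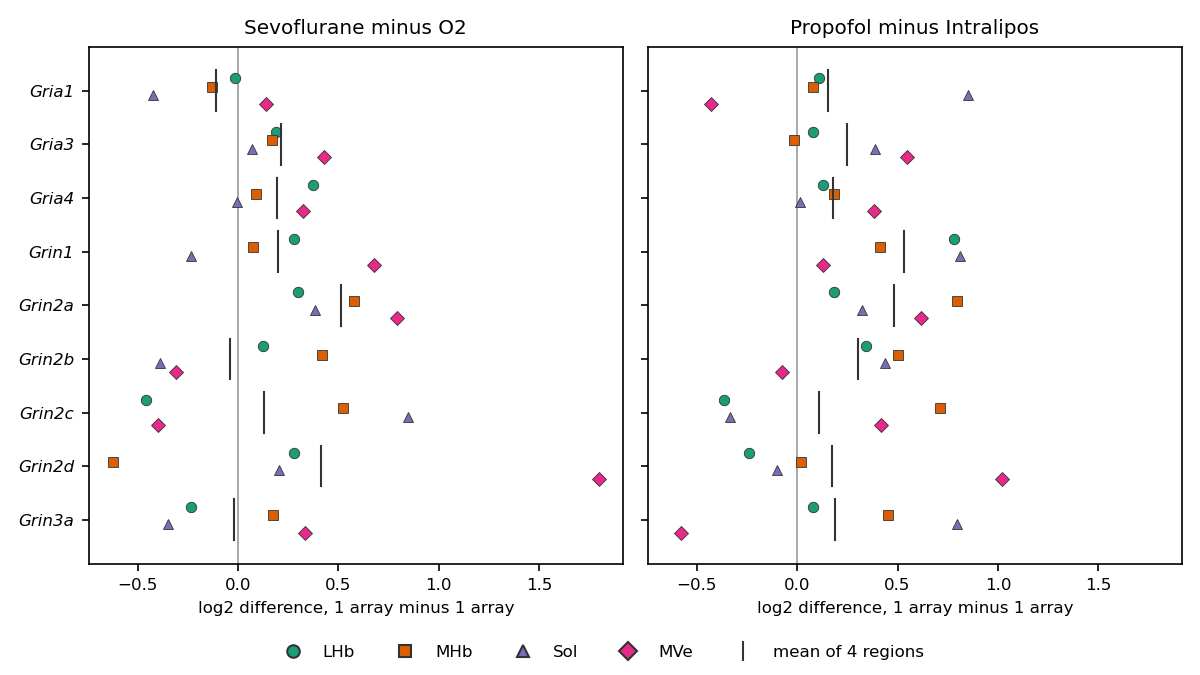
Log2 difference of the anesthetic array minus its control array (horizontal axes) for the 9 subunit genes in each of the 4 regions, with vertical ticks for the mean of the 4 regions. Grin2a lies to the right of 0 in 4 of 4 regions in both panels, and the Grin2d point of MVe, at 1.80 under Sevoflurane, is the farthest from 0.

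A contrast of the 2 anesthetic effects, each taken from its control, tested whether they differed. It passed for 0 of 9 subunit genes (0.0133% of all genes), with 0 of 9 (754 or 5.01% of all genes) at an unadjusted p under 0.05. Values ran from -0.34 ± 0.25 for Grin2b to 0.24 ± 0.40 for Grin2d. Whether an effect differed between habenula (LHb and MHb) and hindbrain (Sol and MVe) was tested in a model of its own (6 residual degrees of freedom). For Sevoflurane it passed for 0 of 9 (0% of all genes). At an unadjusted p under 0.05 it gave 1 of 9 (Grin2d), against 803 or 5.34% of all genes. The values ran from -1.17 ± 0.52 for Grin2d (unadjusted p = 0.0399, adjusted p = 0.927) to 0.62 ± 0.31 for Grin2b. The Grin2d value rested on single arrays. It was -0.63 without the O2 array of MVe, -0.65 without the Sevoflurane array of MVe or of MHb, and -1.71 without the O2 array of Sol. For Propofol it passed for 0 of 9 (0% of all genes), with 0 of 9 (816 or 5.43% of all genes) unadjusted. The Propofol values ran from -0.57 ± 0.52 for Grin2d to 0.24 ± 0.31 for Grin2b.

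The partners of these receptors were followed in 5 lists. None of their measured genes passed in either anesthetic contrast or in the difference between them. AMPA receptor auxiliary proteins, which escort the receptor to the synapse and slow or speed its gating, were the first list. Of 15 measured, 4 were higher and 6 lower in LHb than in MHb, where 14.1% of all genes were higher and 14.4% lower. In Sol against MVe 11 were higher and 3 lower, where 19.3% of all genes were higher and 16% lower. The counts of the other lists below stand against the same 4 shares. Cacng2, which encodes stargazin, was 6.19 ± 0.16 higher in LHb than in MHb, and Cacng3, of the same family, 4.86 ± 0.20 higher. Nptx1 and Nptx2, pentraxins that cluster AMPA receptors from outside the cell, were lower in LHb, by 4.93 ± 0.19 and 3.76 ± 0.27. All 4 had limma adjusted p of 3.35e-09 or less. Between Sol and MVe the largest differences were Cacng5 at 5.58 ± 0.25, Cacng3 at 4.53 ± 0.20, Cnih2 at 3.22 ± 0.17 and Nptxr at 2.71 ± 0.17, all higher in Sol.

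NMDA receptor partners and coagonist genes had 10 of 18 higher and 3 lower in LHb than in MHb, and 11 higher and 4 lower in Sol than in MVe. Camk2a, the calcium-dependent kinase that binds GluN2B, was 3.09 ± 0.17 higher in LHb than in MHb and 4.34 ± 0.17 higher in Sol than in MVe. Slc7a10, a transporter of D-serine and glycine, and Neto1 were higher in LHb than in MHb by 2.95 ± 0.20 and 2.46 ± 0.19. Kainate and delta receptor subunits and Grin3b, 7 measured, had 3 higher and 0 lower in LHb than in MHb, Grik1 by 3.94 ± 0.23, Grid1 by 3.37 ± 0.15 and Grik2 by 2.38 ± 0.19. In Sol against MVe 4 were higher and 1 lower. Scaffold and trafficking genes had 3 of 19 higher and 10 lower in LHb than in MHb, among them Grip1 (-2.10 ± 0.18), which anchors AMPA receptors, Shank2 (-2.09 ± 0.20) and Dlg2 (-2.01 ± 0.15). They had 7 higher and 5 lower in Sol than in MVe, with Nsf lowest at -2.11 ± 0.16. Of the 3 RNA editing enzymes, Adarb1, which recodes AMPA receptor transcripts, was 1.20 ± 0.17 higher in LHb than in MHb and 4.08 ± 0.17 lower in Sol than in MVe (16.9-fold, adjusted p = 3.95e-12). Median differences of the lists for LHb minus MHb were -0.38 for auxiliary proteins, 0.67 for NMDA receptor partners, 0.25 for the other subunits, -0.59 for scaffolds and 1.12 for editing enzymes, against -0.04 for all genes and 0.44 for the 9 subunit genes.

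Likeness in pattern was measured as the root mean square difference over the 16 arrays after centring each gene within each treatment. For Gria1 the closest genes were Kcnh5 (0.40) and Cnih3 (0.41), where the median gene was at 1.71. Cnih3, an AMPA receptor auxiliary protein, lay at 1.78 in MHb, 0.84 in LHb, -0.87 in Sol and -1.75 in MVe on the centred scale. Gria3 was closest to Plcl1 (0.22) and Hecw2 (0.25), and Gria4 to Elovl1 (0.22) and Il33 (0.25). Among NMDA receptor genes, Grin1 was closest to Snx3 (0.14) and Sel1l (0.15), Grin2a to Ptpn11 (0.16) and Echs1 (0.17), and Grin2b to Plxna2 (0.27) and Serping1 (0.29). Grin2c was closest to Git1 (0.28) and Utrn (0.31), Grin2d to Slc16a6 (0.26) and Kctd17 (0.30), and Grin3a to Wdr6 (0.30) and Tle4 (0.34). With 4 regions these lists describe region patterns only, and many genes share each of them.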

How the data were processed

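Arrays were labelled from 100 ng of RNA. Per the submitters' processing notes, the authors used Affymetrix Expression Console 1.3.0 to normalize the deposited log2 signals; how probes were summarized, and on which genome build, is not given in the sources used here. Their log2 scale was taken from the values (2.47 to 19.9), and every fold rests on it. Of 24834 probe sets, 94 were controls, 15049 had 1 gene symbol in the platform annotation, 0 had several and 9691 non-control probe sets had none. All 15049 were matched by gene identifier to RefSeq. The brightest probe set per gene left 15037 genes.

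Each gene's signals over the 16 arrays were modelled by treatment plus region (limma 3.58.1, R 4.3.3; lmFit, eBayes, 9 residual degrees of freedom, two-sided, Benjamini-Hochberg over 15037 genes, threshold 0.05). Depth has no counterpart here; the number of arrays limits the precision. Planned balances against Gria2 were replaced by balances among Gria1, Gria3 and Gria4 after the files were seen. Alternatives were centring, quantile normalization, trend and robust variances, a filter on dim genes, the mean of probe sets, all probe sets, blocking, subsets and leaving out each array.

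The members and gene lists were chosen with earlier results of these data known. All members were named; from each list every gene past an anesthetic test and up to 4 with the largest difference in the contrast described; and the 2 genes most like each member. Gpr151, Gad1, Gad2, Ttr, Otx2 and the cerebellar markers named singly were chosen after their values were seen. Figures were drawn with matplotlib 3.10.9 in Python 3.11.15.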

Additional observations from a re-analysis of the deposited data

How the results depend on the processing

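No difference past the threshold changed sign under any alternative run, and the counts of 9 of 9 subunit genes differing between regions and of 0 of 9 responding to an anesthetic held under all of them. The count for LHb minus MHb was 3 in place of 6 with the Propofol and Intralipos arrays alone, where Grin1, Grin2a and Grin2c missed the threshold. The part of the smaller number of arrays in this drop was not tested. Leaving out 1 array at a time gave 5 to 7 of 9 for LHb minus MHb, 4 to 6 for LHb minus Sol, 5 to 6 for LHb minus MVe, 8 to 8 for MHb minus Sol, 7 to 8 for MHb minus MVe and 6 to 8 for Sol minus MVe. Differences that had not passed turned sign as follows, and the cause was not tested. Grin2c LHb minus Sol was 0.050 with centred arrays, 0.033 with quantile normalization, 0.28 with the Propofol and Intralipos arrays alone, and -0.26 to 0.21 without single arrays. Grin1 LHb minus MVe was -0.019 with the Propofol and Intralipos arrays alone and -0.074 to 0.18 without single arrays. With the Sevoflurane and O2 arrays alone, Grin2a LHb minus MVe was 0.060 and Grin3a MHb minus Sol 0.10. Without single arrays, the Sevoflurane values ran from -0.17 to 0.0074 for Gria1, -0.16 to 0.098 for Grin2b, -0.14 to 0.30 for Grin2c and -0.18 to 0.13 for Grin3a. The Propofol values ran from -0.047 to 0.28 for Gria1, -0.14 to 0.31 for Grin2c, -0.028 to 0.32 for Grin2d and -0.025 to 0.44 for Grin3a. Sevoflurane minus Propofol effect ran from -0.082 to 0.56 for Grin2d, and the Propofol effect in habenula minus hindbrain from -0.023 to 0.50 for Grin2b. Among gene values that had passed, 29 of those without single arrays and 17 of the others missed the threshold, and 14 and 11 that had not passed did so. Region was a term of every anesthetic test, so each anesthetic array was compared with its control within region; the labels give no replicate number that would pair arrays further. The Grin2d signals within the background range limit what can be read of that gene, both outside MVe and in MVe under O2 and Intralipos.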
